A study of Mus musculus with 19 samples.

Results

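The C-type natriuretic peptide system was followed through its ligand gene Nppc and the receptor genes Npr1, Npr2 and Npr3 in ovaries of mice aged 2 months that lacked the Hedgehog ligand gene Dhh, Ihh or both. Every probe set annotated to 1 of these genes alone was taken, which gave 6 of the 45101 probe sets on the array and all 4 genes of the 18193 with such a probe set: 1 each for Nppc, Npr1 and Npr2, and 3 for Npr3. The 19 arrays (Affymetrix whole-genome mouse arrays) carried RNA of whole ovaries: 8 controls with a single working copy of Dhh and of Ihh (Ihh_Dhh_dhet), 4 samples labelled Dhh_KO, 4 labelled Ihh_KO and 3 lacking both genes (Ihh_Dhh_dKO, here dKO). The labels call the deletion ovary specific and name neither the promoter that drives it nor the strain, and no wild-type group was measured, so each comparison is with animals that had lost 1 copy of each gene. The genes were selected on the signal of Nppc in dKO, which had been seen to be high. The comparison of dKO with its controls is therefore given as a description, with no test for these 4 genes.

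Nppc encodes the precursor of C-type natriuretic peptide (CNP), a secreted peptide that granulosa cells of the follicle wall make. Its receptor Npr2 is a guanylyl cyclase of cumulus and granulosa cells that makes cyclic GMP, which passes through gap junctions into the oocyte, restrains the breakdown of cyclic AMP there and so holds the oocyte in meiotic arrest until the surge of luteinizing hormone. Npr1 is the related guanylyl cyclase for the atrial and B-type peptides, and Npr3 binds all of these peptides and clears them, with no cyclase domain of its own.

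In the RefSeq annotation of GRCm38.p6 Nppc lies on chromosome 1, Npr1 on chromosome 3, Npr2 on chromosome 4 and Npr3 on chromosome 15. Nppc is the gene whose signal in dKO chose this system, so the 250 bases before its annotated start are shown. They are from the minus strand at chr1:86670574-86670823 of GRCm38.p6, per RefSeq, with matches to the searched motifs in capitals.
Nppc: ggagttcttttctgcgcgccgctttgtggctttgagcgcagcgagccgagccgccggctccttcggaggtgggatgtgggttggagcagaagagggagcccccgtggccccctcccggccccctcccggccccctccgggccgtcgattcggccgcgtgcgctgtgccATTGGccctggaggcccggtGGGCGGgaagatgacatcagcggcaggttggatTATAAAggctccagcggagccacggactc
The motifs searched on both strands were GACCACCCA (the consensus of the Gli factors, which act at the end of the Hedgehog pathway), TATAAA (the TATA box), CCAAT (the binding motif of nuclear factor Y), GGGCGG (the GC box) and TGACGTCA (the cyclic AMP response element). The capitals mark CCAAT on the opposite strand, then the GC box and the TATA box, in that order toward the start and without overlap. GACCACCCA was not found in this window of Nppc, Npr1, Npr2 or Npr3, and 0.225% of 32851 RefSeq promoters of this length hold it. TATAAA, which starts 29 bases before the start of Nppc, was in none of the 3 receptor windows and in 12.4% of all promoters. CCAAT was found in 33.8% of them and GGGCGG in 32.7%. These matches describe the sequence only.

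Values are the deposited linear signals, scaled by the authors to a shared level on every array. The hybridization controls put the arrays in 2 sets: controls 1 to 4 with dKO, and controls 5 to 8 with Dhh KO and Ihh KO (the BioC spike, 3' probe set over 5' probe set, gave 0.987 to 1.06 for the former and 0.685 to 0.781 for the latter). Each mutant group was set against the controls of its own set. Dhh was at 606 or more on every control and on Ihh KO 1 to 3 between 527 and 709, and at 25.4 or less in both groups that lacked it. Ihh lay between 139 and 425 over the controls, between 36.3 and 52.7 over the dKO arrays and between 12.5 and 43.5 over Ihh KO 1 to 3. The array labelled Ihh KO 4 read 108 for Ihh and 2.96 for Dhh, which goes against its label, so the Ihh KO results are also given without it. The 3'/5' ratio of Gapdh, a sign of RNA quality, was 2.08 to 2.79 on the Dhh KO arrays, all above the 1.89 to 2.01 of controls 5 to 8, and its part in the Dhh KO differences below was not tested. In Ihh KO it was 1.90 to 2.37, and in dKO 1.68 to 1.78 beside 1.69 to 1.80 on controls 1 to 4. Markers of the ovary were present on the arrays: the summed signal of 8 granulosa genes was 33684 to 40626 on controls 1 to 4 and that of 9 oocyte genes 8676 to 16777. In whole-ovary RNA, fewer cells of a type and less RNA per cell cannot be told apart.

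Nppc was higher in ovaries that lacked both ligands. It read 2535, 1777 and 2819 on the arrays dKO 1, 2 and 3, against 727, 673, 1004 and 1408 on controls 1 to 4. All 3 dKO arrays lay above the highest control, and the groups did not overlap. The share of all genes without overlap is not given, for this or any later comparison. The mean was 2377 ± 539 (SD, n = 3) against 953 ± 336 (n = 4), a ratio of 2.49. On the log2 scale the difference was 1.35 (SE 0.28). These values chose the gene, and no test is attached to them.

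Neither single knockout had Nppc above its controls. Nppc read 539, 392, 575 and 756 on controls 5 to 8. It read 490, 335, 575 and 625 on Dhh KO 1 to 4, so 3 of the 4 Dhh KO arrays lay within the range of their controls and 1 below it. The log2 difference was -0.16 (SE 0.26, 95% interval -0.71 to 0.39, limma adjusted p = 0.88 over 12381 genes). Nppc read 482, 284, 448 and 541 on Ihh KO 1 to 4, again with 3 arrays within the control range and 1 below. The log2 difference was -0.36 (SE 0.26, 95% interval -0.91 to 0.19, limma adjusted p = 0.56), and -0.47 without the array labelled Ihh KO 4. Ihh KO and Dhh KO differed by -0.20 (95% interval -0.75 to 0.35, limma adjusted p = 0.80), and by -0.32 without that array. Of the 12381 genes tested, 0% were called in Dhh KO (limma, 1252 genes at an unadjusted p under 0.05) and 0.0162% in Ihh KO (2 genes, with 1728 at an unadjusted p under 0.05). In Ihh KO the count was 48 (0.388%) without the array labelled Ihh KO 4 and 58 without control 8. The members' lack of calls stands beside these low shares. Both intervals end below a doubling. The p-values measure the spread between these samples, and the labels do not say whether each came from its own animal.

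In order of mean signal Nppc ran from dKO (2377) through controls 1 to 4 (953), controls 5 to 8 (566) and Dhh KO (506) to Ihh KO (439). Only the step from dKO to the next group was free of overlap. The level of Nppc itself depended on the set: controls 5 to 8 averaged 0.594 of controls 1 to 4. Set against its own controls, Nppc stood at 1.87 to 2.96 times their mean in dKO, 0.593 to 1.10 in Dhh KO and 0.503 to 0.957 in Ihh KO.

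**Figure D1:**
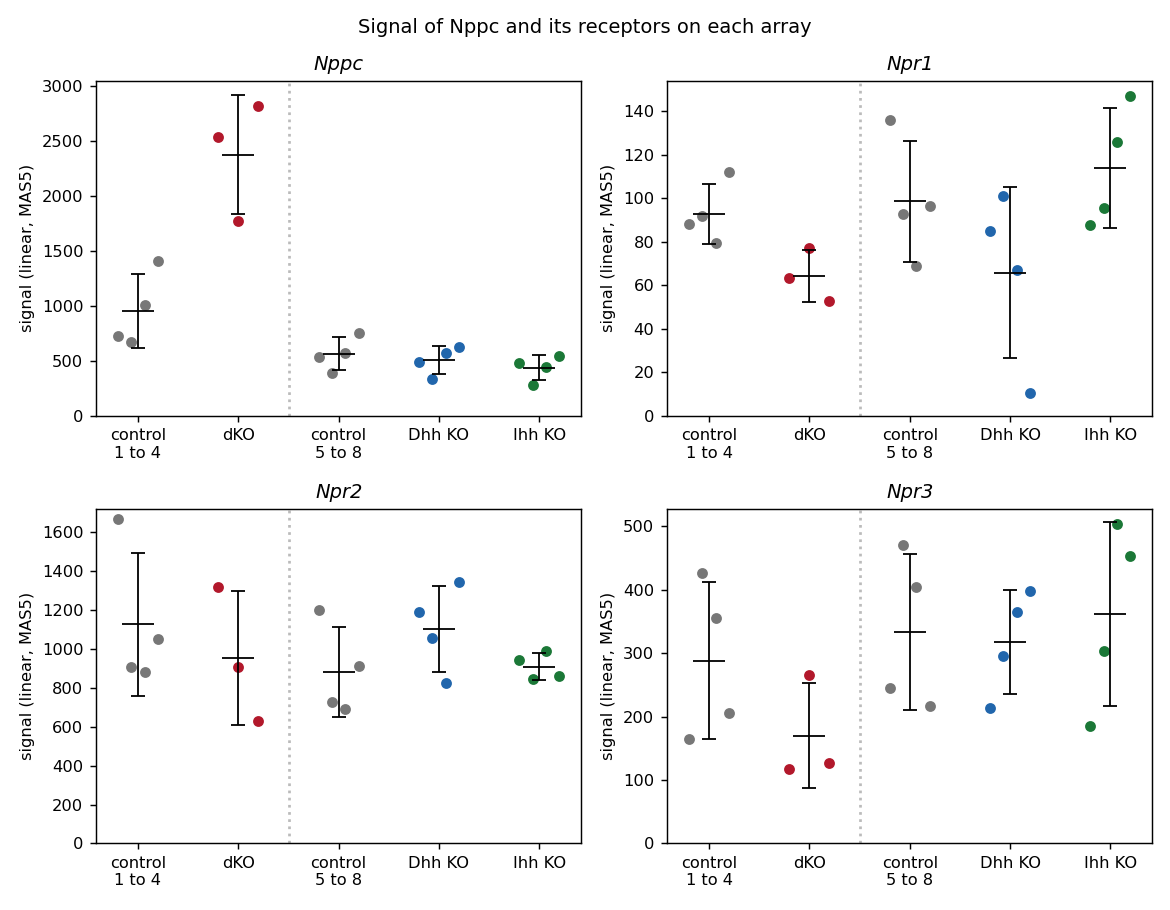
Linear signal of Nppc, Npr1, Npr2 and Npr3 (strongest probe set) on each of the 19 arrays; points are arrays, horizontal bars the group mean, error bars the SD, and the dotted line separates the hybridization sets. The 3 dKO arrays read 1777 to 2819 for Nppc, above all other arrays, while the receptor signals of most groups overlap.

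Npr2, the receptor through which CNP acts on the follicle, overlapped the controls of its set in each mutant group. It was not called in either single knockout. With 3 or 4 arrays per group this does not show that it was unchanged. It read 1316, 908 and 631 on dKO 1 to 3, against 1668, 905, 882 and 1051 on controls 1 to 4. Of the dKO arrays, 2 lay within the control range and dKO 3 below it, with means of 951 ± 345 (SD, n = 3) and 1126 ± 368 (n = 4) and a log2 difference of -0.26 (SE 0.25). The array with the highest Nppc, dKO 3, was thus the one with the lowest Npr2. However, dKO 1, the next highest in Nppc, had the highest Npr2, so the dKO arrays showed no inverse order.

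In Dhh KO Npr2 read 1190, 1056, 824 and 1343, against 1198, 727, 690 and 912 on controls 5 to 8. Only Dhh KO 4 lay above all of these controls. The means were 1103 ± 220 (SD, n = 4) and 882 ± 232 (n = 4), a log2 difference of 0.33 (SE 0.23, 95% interval -0.15 to 0.82, limma adjusted p = 0.65). Npr2 was most even in Ihh KO, where it read 942, 843, 992 and 860, all within the control range. The log2 difference was 0.08 (95% interval -0.41 to 0.56, limma adjusted p = 0.91), and 0.10 without the array labelled Ihh KO 4. Ihh KO and Dhh KO differed by -0.26 (95% interval -0.74 to 0.23, limma adjusted p = 0.69), and by -0.23 without that array. In order of mean signal the groups ran from controls 1 to 4 through Dhh KO, dKO and Ihh KO to controls 5 to 8, and all neighbours overlapped.

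Npr3, the clearance receptor, was at its lowest mean in dKO on each of its 3 probe sets, with overlap on all of them. Controls 1 to 4, of the same hybridization set, had the next lowest mean on each. Npr3 depended on the set: controls 5 to 8 averaged 1.16 times controls 1 to 4 on the strongest probe set. On the weaker probe sets this ratio was 2.21 and 1.59. On the strongest probe set it read 118, 265 and 127 on dKO 1 to 3, against 164, 427, 355 and 205 on controls 1 to 4. The arrays dKO 1 and dKO 3 lay below every control and dKO 2 lay within their range. The means were 170 ± 82.2 (SD, n = 3) and 288 ± 124 (n = 4), a ratio of 0.591, with a log2 difference of -0.73 (SE 0.39). The weaker probe sets gave ratios of 0.716 (68.0 ± 27.6 against 94.9 ± 27.0) and 0.584 (55.5 ± 21.5 against 95.1 ± 44.0). On all 3 probe sets dKO 2 was the highest of the dKO arrays, and it was also the dKO array with the least Nppc. The lowest on each was dKO 1, not dKO 3, which had the most Nppc.

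In the single knockouts the wide ranges of Npr3 overlapped those of the controls. The strongest probe set read 245, 470, 404 and 216 on controls 5 to 8, 213, 296, 365 and 398 in Dhh KO, and 185, 304, 504 and 453 in Ihh KO. The log2 difference was -0.03 in Dhh KO (95% interval -0.80 to 0.73, limma adjusted p = 0.98) and 0.09 in Ihh KO (95% interval -0.67 to 0.85, limma adjusted p = 0.94), with -0.05 in Ihh KO when the array labelled Ihh KO 4 was left out. Ihh KO and Dhh KO differed by 0.12 (95% interval -0.64 to 0.88, limma adjusted p = 0.93), and by -0.02 without that array. The weaker probe sets did not settle the direction: in Dhh KO they stood at -0.52 and -0.29, and in Ihh KO at -0.12 and -0.18, with limma adjusted p from 0.55 to 0.90 when probe sets were tested singly.

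**Figure D2:**
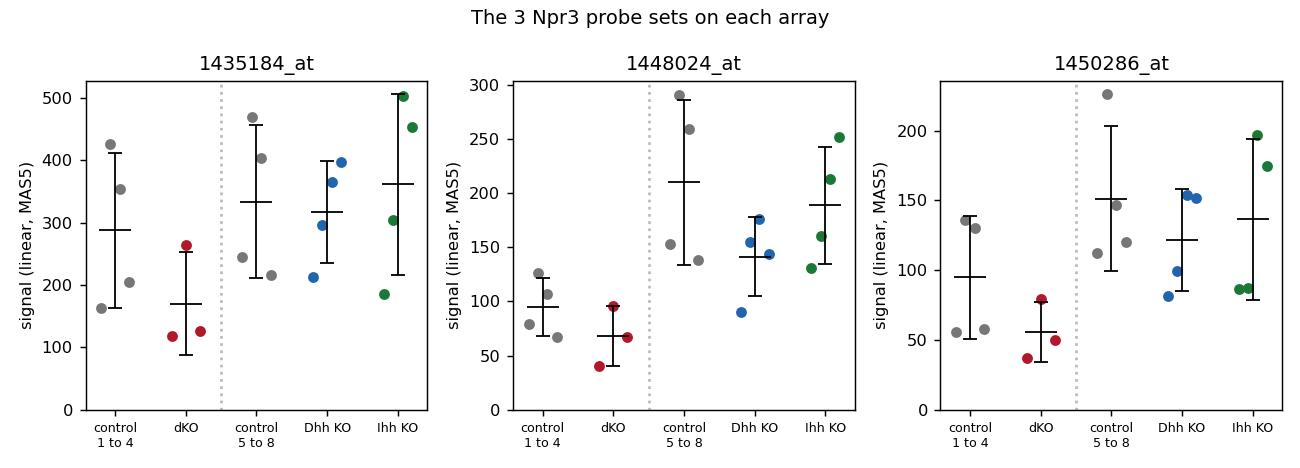
Linear signal of the 3 Npr3 probe sets on each array; points are arrays, bars the group mean and error bars the SD, and the dotted line separates the sets. The dKO mean is the lowest on each probe set (170, 68.0 and 55.5), and its range overlaps that of controls 1 to 4 on all 3.

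Npr1, the receptor for the atrial and B-type peptides, had a low signal, near the level under which genes were left out (69.3). It read 63.1, 76.9 and 52.8 on dKO 1 to 3, against 88.3, 91.8, 79.4 and 112 on controls 1 to 4. All 3 dKO arrays lay below the lowest control, by a small margin. The means were 64.3 ± 12.1 (SD, n = 3) and 93.0 ± 14.0 (n = 4), a log2 difference of -0.49 (SE 0.44). The mean of dKO thus lay under the filter level, which the gene passed through its level in other groups.

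In Dhh KO Npr1 read 84.7, 101, 66.9 and 10.6, against 136, 92.9, 68.9 and 96.2 on controls 5 to 8. The array Dhh KO 4 stood far below the rest and decided the size of the difference. The log2 difference was -0.78 (SE 0.41, 95% interval -1.63 to 0.07, limma adjusted p = 0.53) with it and -0.19 without it. In Ihh KO Npr1 read 87.7, 95.3, 126 and 147, with Ihh KO 4 alone above the control range. The log2 difference was 0.21 (95% interval -0.64 to 1.06, limma adjusted p = 0.85), and 0.08 without that array. Ihh KO and Dhh KO differed by 0.99 (unadjusted p = 0.026, limma adjusted p = 0.37), by 0.40 without Dhh KO 4 and by 0.86 without the array labelled Ihh KO 4. That comparison called 0% of all genes (limma, 1440 genes at an unadjusted p under 0.05), and 0.210% without the array labelled Ihh KO 4.

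**Figure D3:**
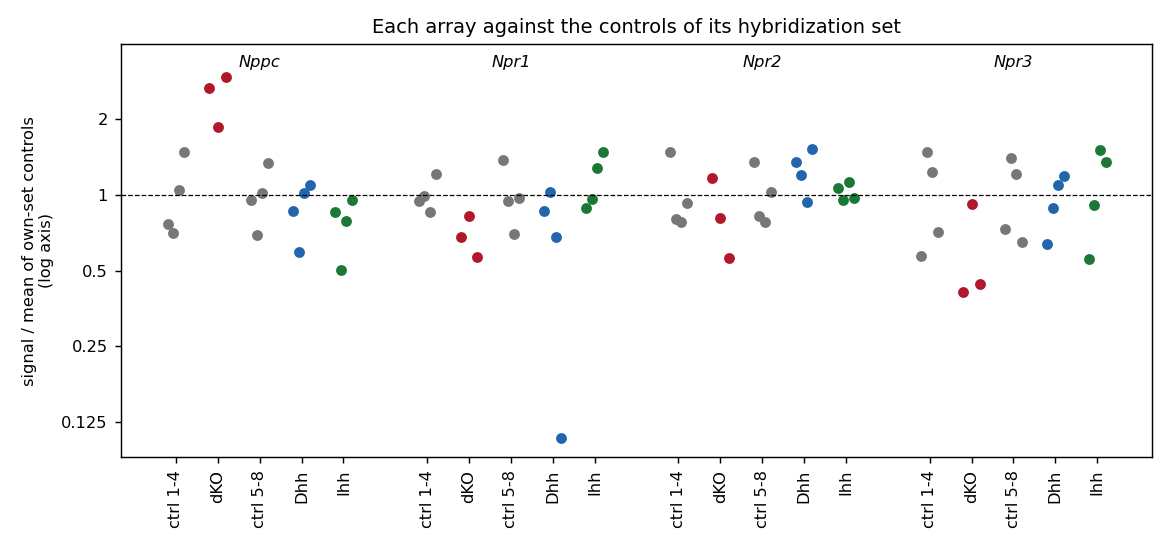
Signal of each array divided by the mean of the controls of its set (log axis) for the 4 genes; grey points are controls, coloured points mutants, and the dashed line marks the control mean. Nppc stands at 1.87 to 2.96 in dKO and at 0.503 to 1.10 in the single knockouts, and the low Npr1 point in Dhh KO is Dhh KO 4 at 0.107.

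The controls show how far the system varies without a change of genotype. Nppc had the same order on controls 1 to 4 (control 2 lowest, then 1, 3 and 4) as on controls 5 to 8 (6, then 5, 7 and 8). Npr2 and the weaker Npr3 probe sets also kept their order by position. Npr1 and the strongest Npr3 probe set did not, the latter only in its 2 lowest controls. Across all tested genes the deviations of control 1 and control 5 from their set means correlated at 0.537, of 2 and 6 at 0.752, of 3 and 7 at 0.694 and of 4 and 8 at 0.770, where genes are not independent replicates. Only controls of matching position were compared in this way, and the labels do not say whether these pairs share RNA. A pattern in both control sets may thus not rest on separate samples. The strongest Npr3 probe set was highest on controls 2 and 6 (427 and 470), where Nppc was lowest.

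Markers of corpora lutea, the glands left after ovulation, were highest where Nppc was lowest among the controls, and those of oocytes lowest. The corpus luteum list had a probe set for 3 of its 5 genes, and its summed signal was 16630 on control 2 and 14963 on control 6, against 1285 to 4395 and 1562 to 4154 on the other controls of each set. It was lowest on controls 4 and 8, where Nppc was highest. The oocyte sum was highest there (16777 on control 4, 14193 on control 8) and lowest on controls 2 and 6 (8676 and 6391), while controls 1 and 3 did not follow the order of Nppc (13472 and 12410). The adipocyte sum, over 5 of 7 genes, was 1202, 599, 1375 and 2774 on controls 1 to 4, in the order of Nppc, and 1548, 683, 1464 and 2867 on controls 5 to 8, where controls 5 and 7 exchanged places. Other lists also went with Nppc. Sums of stroma (28538 and 21327), smooth muscle (18769 and 14895) and macrophages (10350 and 8987) were highest on controls 2 and 6. Granulosa (33684 and 31812) and oviduct (935 and 1131) sums were lowest there. The mast cell sum had the order of Nppc on controls 1 to 4 (503, 317, 534 and 836). Theca, endothelial and surface epithelium sums were at neither end on controls 2 and 6. The part of any of these cells in the level of Nppc was not tested. In dKO the corpus luteum sum was 3650, 6919 and 1102, and that of oocytes 12276, 15078 and 20351.

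**Figure D4:**
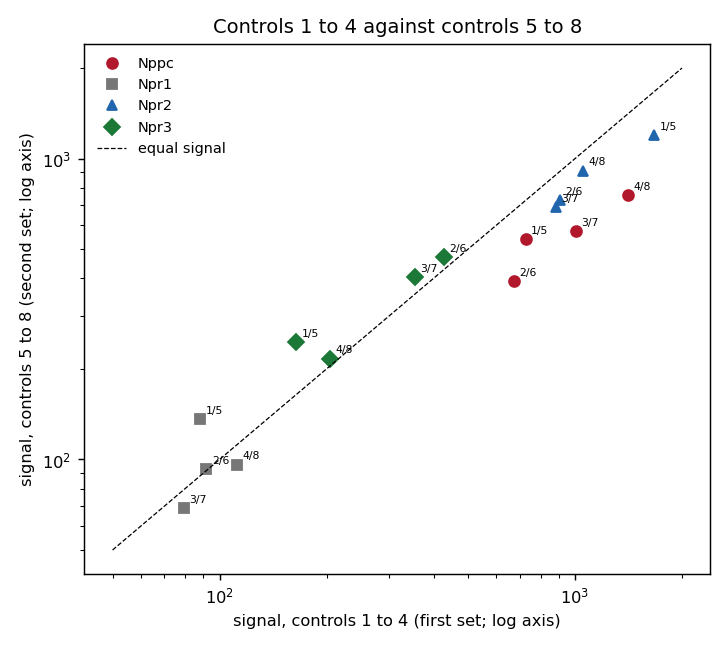
Signal of controls 5 to 8 (vertical, log axis) against controls 1 to 4 (horizontal, log axis) for the 4 genes, with labels naming the arrays and the dashed line marking equal signal. Nppc lies below the line on all 4 pairs (ratios 0.537 to 0.742), and the strongest Npr3 probe set lies above it (1.06 to 1.49).

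Markers of other cell types differed between dKO and controls beside Nppc. The counts called below (limma) stand beside 1.57% of all tested genes called higher in dKO and 1.45% called lower. Of 8 oviduct genes, all with a probe set, 6 were tested and 4 rose in dKO: Plet1, Wfdc2, Epcam and Cdh1. Their summed signal was 8652, 2224 and 14633 on dKO 1 to 3, against 935 to 2003 on controls 1 to 4, and of the untested genes Pax8 read 10.2 to 32.7 and Foxj1 2.54 to 667 in dKO. Nppc followed the same order over the dKO arrays. On dKO 2, the array with the smallest of these sums, Wfdc2 read 139 against 58.9 to 82.5 on controls 1 to 4. Cdh1 read 468 there against 160 to 276, and Epcam 1111 against 402 to 772. The rest of the list lay within the control range on dKO 2: Plet1 (227 against 41.9 to 249), Ovgp1 (53.6 against 26 to 409) and Tppp3 (213 against 181 to 522). So did Foxj1 (2.54 against 1.39 to 44.5) and Pax8 (10.2 against 1.12 to 16). The adipocyte sum was 6556, 645 and 9625 in dKO, against 599 to 2774, again in the order of Nppc over the dKO arrays (0 of 3 tested were called). The sum of 8 granulosa genes, the cells known to make CNP, was 38211, 35524 and 47731 in dKO, also in the order of Nppc. Only dKO 3 lay above controls 1 to 4, and 0 of the 8 tested were called (median log2 difference 0.09). Of the pathway lists below, meiotic arrest (26016, 23010 and 29450) and the estrogen and follicle stimulating hormone side (26115, 22221 and 31754) had this order too. The other lists did not, and over 3 arrays such a match comes easily. The theca and steroidogenic sum was lower in dKO (14962 to 20468, against 29501 to 38924; 2 of 4 called lower) and that of the surface epithelium higher (6595 to 10034, against 3642 to 5282; 2 of 6 called higher). The stroma sum was 20332, 19602 and 13256, against 18959 to 28538 (2 of 6 called lower, Tcf21 and Nr2f2). The mast cell sum was 3740, 1508 and 647, against 317 to 836 on controls 1 to 4. Of 3 tested mast cell genes 2 were called higher, Cma1 and Tpsb2. Kit, also on this list, averaged lower in dKO (224 against 387). On dKO 3 Cma1 read 144 (controls 36.3 to 81.9), Tpsb2 107 (33.8 to 58.7), Cpa3 59.3 (19.8 to 54.4) and Mcpt4 52.5 (17.4 to 23.9). Each lay above all of these controls. The part of these cells in the Nppc signal was not tested. Npr3 and Npr1 were lower in dKO beside lower endothelial and smooth muscle sums. The endothelial sum was 3110, 2596 and 2133, against 3246 to 4396 (1 of 7 called lower, Emcn). The smooth muscle sum was 12275, 5555 and 7089, against 14202 to 18769 (3 of 7 called lower). Neither sum had the order of Npr3 or Npr1 over the dKO arrays. Smooth muscle was lowest on dKO 2, where Npr3 (265, strongest probe set) and Npr1 (76.9) were highest. The part of these cells was not tested either.

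The remaining genes of the pathway were 47 genes in 5 lists, of which 33 were tested. In dKO 0 rose and 1 fell, against a background of 1.57% of all genes called higher and 1.45% called lower (3.02% in all), so the share of the lists called, 3.03%, was that of all genes. At an unadjusted p under 0.05 there were 7 of the 33 (21.2%) in dKO, beside 16.1% of all genes. In Dhh KO 0 were called (limma), with 2 (6.06%) at an unadjusted p under 0.05 beside 10.1% of all genes. In Ihh KO 0 were called (limma), with 5 (15.2%) beside 14.0%, and without the array labelled Ihh KO 4 also 0, with 6. The median log2 difference over the 33 was 0.05 in dKO, -0.01 in Dhh KO and -0.12 in Ihh KO, beside 0.02, -0.03 and -0.02 over all genes.

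The other ligands were near the bottom of the scale. Nppa, the atrial peptide, read 3.49 to 46.8 and Nppb, the B-type peptide, 2.30 to 90.6 over all arrays, and both lay under the filter together with Corin, the protease that processes the atrial peptide. Furin, a protease that cleaves the CNP precursor, averaged 1606 ± 151 (SD, n = 3) in dKO and 1805 ± 145 (n = 4) in its controls (log2 difference -0.17, limma adjusted p = 0.70). Mme, the endopeptidase neprilysin that degrades natriuretic peptides, averaged 181 ± 68.8 (n = 3) against 298 ± 78.8 (n = 4), a difference of -0.72 (limma adjusted p = 0.28). It stood at -0.76 in Ihh KO (limma adjusted p = 0.27), and at -0.85 without the array labelled Ihh KO 4. Neither passed the test.

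The gene that fell was Pde5a, a phosphodiesterase that breaks down cyclic GMP and is abundant in smooth muscle. It read 352, 410 and 252 on dKO 1 to 3, averaging 338 ± 80.0 (SD, n = 3), against 462 to 1479 on controls 1 to 4, with a mean of 964 ± 445 (n = 4). The groups did not overlap, and the log2 difference was -1.39 (SE 0.32, limma adjusted p = 0.023). The call was lost without control 1 (adjusted p = 0.072), control 2 (0.071) or dKO 3 (0.13), and in a fit of these groups alone (0.13). Pde5a fell beside the smooth muscle sums given above, whose part was not tested. Among the dKO arrays it was highest on dKO 2, where that sum was lowest. Prkg1, a kinase activated by cyclic GMP, averaged 117 ± 50.3 against 193 ± 30.6 (-0.76, limma adjusted p = 0.11). Gucy1a1, a subunit of the soluble guanylyl cyclase, differed between Ihh KO and Dhh KO by 0.42 (limma adjusted p = 0.51), and by 0.52 without the array labelled Ihh KO 4.

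Genes of the oocyte side of the arrest were not called. Pde3a, the phosphodiesterase of the oocyte that cyclic GMP inhibits, averaged 182 ± 15.6 (SD, n = 3) in dKO and 160 ± 14.5 (n = 4) in its controls, which overlapped. In Ihh KO it read 220 to 258, against 329 to 355 on controls 5 to 8, without overlap (log2 difference -0.46, SE 0.11, limma adjusted p = 0.14, and -0.49 with adjusted p = 0.087 without the array labelled Ihh KO 4). In Dhh KO it read 268 to 314, also below all controls of the set (-0.22, limma adjusted p = 0.52). With no share of all genes that separate in this way, the lack of overlap alone does not set Pde3a apart. The same holds for Pde5a above and Btc below. Wee2, an oocyte kinase that holds cell division in check, stood at 0.58 in dKO (limma adjusted p = 0.36). Gpr3, the receptor that keeps cyclic AMP high in the oocyte, lay under the filter.

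Among genes that act around the luteinizing hormone surge, Btc, an epidermal growth factor family ligand, came nearest in dKO. It read 104 to 134 against 57.5 to 84.8, without overlap, with a log2 difference of 0.70 (limma adjusted p = 0.068). In the single knockouts Btc was on the other side of its controls, at -0.57 in Dhh KO (limma adjusted p = 0.34) and -0.43 in Ihh KO (limma adjusted p = 0.31, and also -0.43 without the array labelled Ihh KO 4), and none of these passed the test. Adamts1, an ovulatory protease, stood at -0.78 in dKO (limma adjusted p = 0.465). On the estrogen and follicle stimulating hormone side Esr2, the estrogen receptor of granulosa cells, stood at 0.69 in dKO (limma adjusted p = 0.36) and Esr1 at -0.54 in Dhh KO (limma adjusted p = 0.51) and -0.51 in Ihh KO (limma adjusted p = 0.41), or -0.68 without the array labelled Ihh KO 4.

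**Figure D5:**
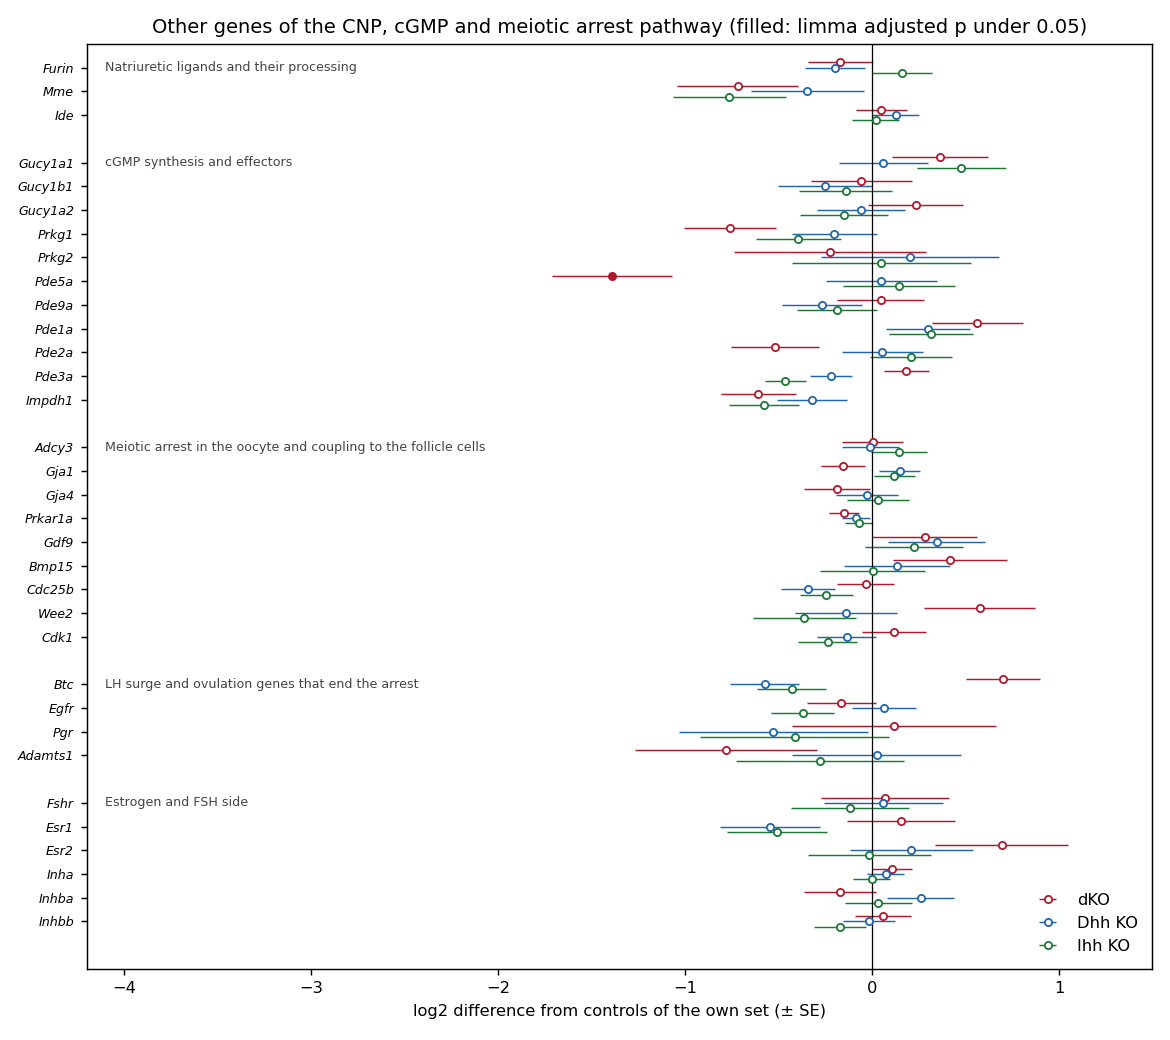
Log2 difference (± SE) of the 33 tested pathway genes from the controls of the same set, for dKO, Dhh KO and Ihh KO; filled points passed limma at an adjusted p under 0.05. Pde5a in dKO (-1.39) is the only filled point.

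The genes whose levels ran most like those of each member were found over the 19 arrays, after the mean of the controls of the set was taken off. These correlations are a description, and the arrays share the difference between dKO and the rest. For Nppc they were Plxnc1 (r = 0.908), Lrig1 (0.901), Fam118a (0.890), Ppp2r2b (0.889) and Eya4 (0.889). All 5 were higher in dKO, by log2 differences of 0.51 to 2.70, and below 0 in both single knockouts, by as little as -0.03. Their choice by correlation with Nppc over the same arrays favours this pattern, so it is no separate result. For Npr2 they were Heph (0.899), Slc38a3 (0.898), Poglut2 (0.886), Csmd1 (0.877) and Taf4b (0.877). For Npr3 they were Fzd1 (0.884), Cltc (0.882), Cyp4f14 (0.876), Ugdh (0.855) and Maoa (0.850). For Npr1 they were Sdhd (0.899), Zfp518a (0.824), Smim26 (0.789), Zfp503 (0.779) and Bloc1s4 (0.757). Among the members themselves Nppc and Npr3 ran apart (r = -0.525 over 19 arrays), mainly through dKO: without those arrays r was -0.157 over 16. Nppc and Npr2 stood at -0.330 and -0.028 in the same order.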

How the data were processed

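Ovarian RNA was amplified (WT-Ovation Pico) and biotin-labelled, per the labels' protocols. The deposited values are linear intensities, 1 signal per probe set and array, made with MAS5 per the submitters' processing notes (version not given in the sources used here). In the deposited values the trimmed mean (lowest and highest 2 percent left out) was 500 on all arrays. Gene names came from the platform annotation, with 34741 of 34945 single-gene probe sets matched by Entrez identifier to RefSeq genes of GRCm38.p6.

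Values were used as log2(signal + 7.02), the 10th percentile of all signals, so differences of dim genes are understated. Each gene was read from the brightest of its single-gene probe sets on average, and genes dimmer than a signal of 69.3, the 40th percentile, were not tested, which kept 12381. All 4 members passed. The test was limma 3.58.1 under R 4.3.3 (two-sided, intensity trend, Benjamini-Hochberg adjustment, threshold 0.05) in 1 model of 5 means, with the controls split by hybridization set. The script was tested on simulated data. Figures were drawn with matplotlib 3.10.9.

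The members, lists and tests were chosen with earlier results of these data known. Members were every single-gene probe set of the 4 genes. The rule for names allowed, from each list, the genes called and up to 2 of smallest p per comparison, and for each member the 5 genes of highest correlation, clone, Gm and Rik names skipped; not all of these are printed. Nppa, Nppb, Corin, Gpr3, Pax8, Foxj1, Cpa3 and Mcpt4, which were not tested, were named after their values were seen. So was Tppp3, which was tested but lay outside this rule.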

Additional observations from a re-analysis of the deposited data

How the results depend on the processing

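No member was called in a single knockout, or between the single knockouts, under any of the 233 alternative values computed (lowest adjusted p 0.178). Nppc in dKO kept its direction in all alternatives, at 1.20 to 1.71, and Npr3 (-1.09 to -0.51) and Npr1 (-0.62 to -0.37) kept theirs, while Npr2 lay between -0.52 and 0.01. Of the tested member values 16 changed sign, none of them called. Npr3 in Ihh KO was -0.07 with the mean of the probe sets and -0.102 to 0.369 with arrays left out, and Npr3 in Dhh KO was 0.086 with all 8 controls as 1 group and -0.213 to 0.153 with arrays left out. Npr2 in Ihh KO was -0.092 with all 8 controls and -0.03 to 0.234 with arrays left out, Nppc in Dhh KO -0.319 to 0.024, and Npr3 between Ihh KO and Dhh KO -0.069 to 0.402.

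The number of genes called moved more. For dKO (374) it was 225 with median centring, 246 with the filter at the 60th percentile, 79 with only the groups compared, 594 with all 8 controls as 1 group, and 128 to 503 with arrays left out (243 without control 1, 197 without control 3, 228 without dKO 2 and 128 without dKO 3). For Ihh KO (2) it was 1 with median centring, 7 with no filter, 0 with the stricter filter, 8 with probe sets one by one, 1 with their mean, 0 with only the groups compared, 0 with a correlation shared by controls of matching position, 1 without the intensity trend, and 0 to 58 with arrays left out (58 without control 8, 48 without the array labelled Ihh KO 4, 0 without any other single array of the comparison). For Dhh KO (0) it was 1 with the pseudocount of 29.4, 1 with the mean of the probe sets, 1 with only the groups compared, 19 with all 8 controls, and 0 to 7 with arrays left out (7 without control 8). Between Ihh KO and Dhh KO (0) it was 4 with quantile normalization, 1 with the larger pseudocount and 0 to 26 with arrays left out (26 without the array labelled Ihh KO 4). The cause of these shifts was not tested. Median centring moved the median of all genes to 0.128 in Ihh KO and to 0.132 between Ihh KO and Dhh KO.

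Deviations of same-numbered dKO and control arrays correlated at 0.158, 0.274 and 0.074, and those of Ihh KO and Dhh KO at -0.298 to 0.156. For these groups only same-numbered arrays were compared, so the values cannot decide whether shared numbers pair the arrays. With the replicate number as a block 365 genes were called in dKO (Nppc 1.49) and 0 between Ihh KO and Dhh KO, and no other call on the members changed. Controls 5 to 8 share no number with the single knockouts, so no such fit was possible there. Npr1, the dimmest member, gave no value with the filter at the 60th percentile.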
